A study of Mus musculus with 8 samples.

Results

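Synaptotagmins are membrane proteins of secretory and synaptic vesicles that carry a pair of C2 domains, the modules through which several of them bind calcium and phospholipids. The best known isoforms act as calcium sensors of neurotransmitter release, while others bind calcium weakly or not at all and serve other steps of vesicle traffic. In cortex the sensors are best known from neurons, and it is a question of cell biology which isoforms astrocytes make. Described here are the 10 genes Syt1, Syt2, Syt3, Syt4, Syt5, Syt7, Syt9, Syt11, Syt12 and Syt13, picked by symbol, among 24060 gene symbols in each file. All 10 had a row and all 10 passed the filter on low values.

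The libraries came from the cortex of 4 young adult male and female mice of about postnatal day 80, each hemizygous for Aldh1l1-creERT2 and heterozygous for Ribotag. Aldh1l1 regulatory sequence drives an inducible Cre in astrocytes, and Ribotag is a Cre-dependent allele of the ribosomal protein gene Rpl22 that adds a hemagglutinin (HA) epitope to ribosomes. From each animal, RNA of the cleared lysate made the input library and RNA precipitated through the tag the HA IP library, so both groups share the genotype, and HA IP from animals without Cre was not analysed here. The 4 animals, numbered 579, 580, 581 and 595, gave 4 input and 4 HA IP libraries. Induction of the Cre is not described in the sources used here, and the labels do not say which animal was male or female.

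Totals ran from 33834388 to 53625125 fragments per library, as recovered from the FPKM values (fragments scaled to gene length and to the library total). Aldh1l1, a folate enzyme gene, had a mean FPKM of 406 ± 26.2 after HA IP against 21.8 ± 0.926 before it (SD, n = 4 each). All 12 astrocyte markers rose (limma, adjusted p under 0.05), by 2.96 to 5.11 on the log2 scale, and none of the markers of other cell types checked was at 0 in all HA IP libraries. Fold changes below are on the log2(FPKM + 0.1) scale after TMM scaling, which assumes that most genes do not differ. The factors by themselves raised log2 ratios of HA IP to input by a mean of 0.84. With the 0.1 FPKM added, fold changes of genes at low levels moved less, such as that of Syt9 from -2.68 to -1.95. The median over all genes tested moved from -0.75 to 0.01.

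Of the 10 genes, 8 were lower in HA IP, 1 was higher and 1 did not pass (limma over 15605 genes, Benjamini-Hochberg adjusted p under 0.05). Of all genes tested, 83.3% were called in either direction, 41.2% lower and 42.1% higher. On the deposited scale, without TMM factors, 9 of the 10 were lower and 1 was higher, where 61.6% of all genes were called lower and 23.3% higher. The median log2 fold change of the 10 was -2.90 against 0.01 over all genes tested, and -3.73 against -0.75 on the deposited scale. HA IP and input did not overlap in deposited FPKM for any of the 10. Of all genes tested 59.0% lay wholly lower in HA IP and 22.0% wholly higher.

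**Figure D1:**
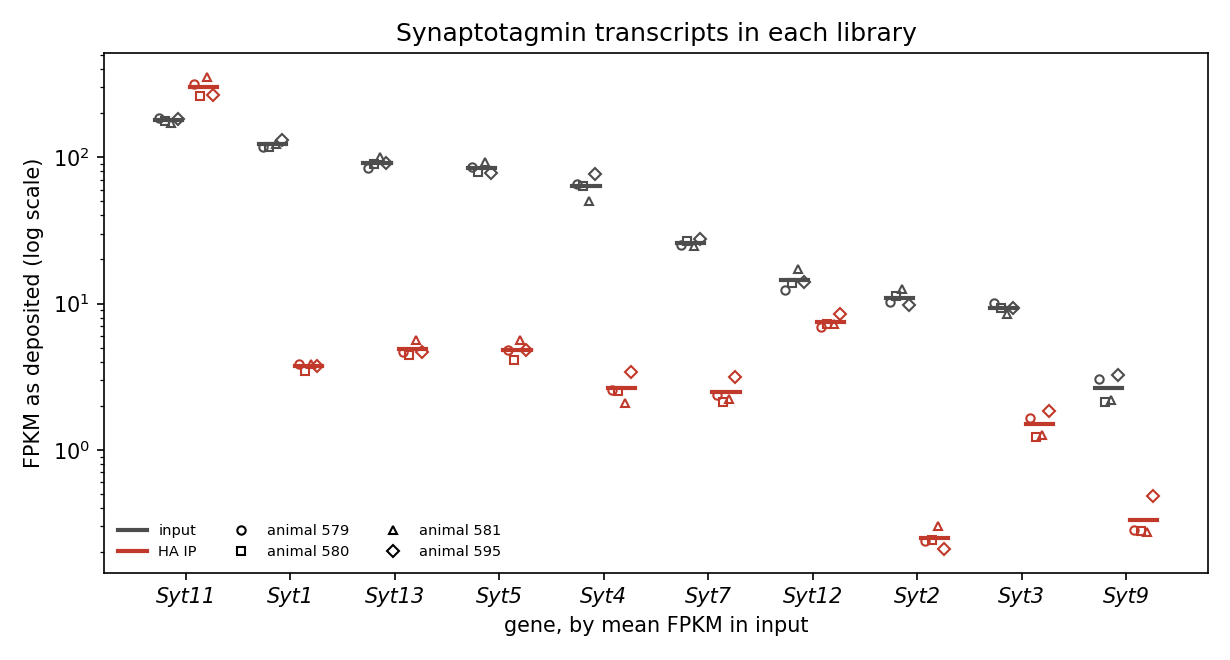
FPKM as deposited (log axis) of each gene in every library; grey symbols are the 4 input and red symbols the 4 HA IP libraries, symbol shapes mark the animals, and horizontal lines are group means. Syt11 lies above its input values in HA IP, and the other 9 genes lie below theirs.

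The start regions of the genes at the ends of the order are shown here: Syt11, the gene with the highest fold change, and Syt2 and Syt1, those with the lowest. They are RefSeq sequences of build GRCm38.p6, from 250 bases before to 50 bases after an annotated start, 5′ to 3′ on the gene's strand. Capitals mark matches to GGGCGG on either strand, the core of an SP1 box. Entries were matched for 5 of the 10 genes, with 7 starts in all (Syt1, Syt2, Syt3, Syt9 and Syt11). For Syt1 and Syt2, which have 2 starts each, the one at the outer end of the gene is shown. The only entry of Syt11 lies inside the gene, whose outer end is at 88775159, so an inner start is shown for it.
Syt11, chr3:88772550-88772849, minus strand: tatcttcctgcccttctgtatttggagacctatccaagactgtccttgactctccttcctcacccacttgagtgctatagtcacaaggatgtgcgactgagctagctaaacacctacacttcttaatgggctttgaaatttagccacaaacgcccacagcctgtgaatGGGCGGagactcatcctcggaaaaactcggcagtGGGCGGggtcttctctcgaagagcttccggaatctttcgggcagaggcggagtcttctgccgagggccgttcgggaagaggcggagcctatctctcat
Syt1, chr10:109010926-109011225, minus strand: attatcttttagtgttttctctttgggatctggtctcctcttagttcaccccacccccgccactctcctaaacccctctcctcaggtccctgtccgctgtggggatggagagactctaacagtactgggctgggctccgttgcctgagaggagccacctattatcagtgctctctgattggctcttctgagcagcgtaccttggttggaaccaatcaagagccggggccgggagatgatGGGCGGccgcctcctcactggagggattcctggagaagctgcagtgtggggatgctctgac
Syt2, chr1:134646362-134646661, plus strand: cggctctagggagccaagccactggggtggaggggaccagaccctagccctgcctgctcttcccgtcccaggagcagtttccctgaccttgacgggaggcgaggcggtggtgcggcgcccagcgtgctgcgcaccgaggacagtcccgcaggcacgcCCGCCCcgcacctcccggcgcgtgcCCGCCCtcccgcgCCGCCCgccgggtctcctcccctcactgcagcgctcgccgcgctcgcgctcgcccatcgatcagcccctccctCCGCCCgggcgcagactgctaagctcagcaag

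The Syt11 region held 2 matches to GGGCGG, the Syt1 region 1 and the Syt2 region 4, and 35.7% of 32851 promoter entries of the same length held at least 1. The inner start of Syt1 had 0 matches and 6 CpG dinucleotides, and that of Syt2 had 2 matches and 28. The regions differed in CpG dinucleotides, with 14 in Syt11, 8 in Syt1 and 34 in Syt2, against a median of 7 over all entries. Their GC content was 53.0%, 56.7% and 74.3%. None of the 7 entries held TGACGTCA (the cyclic AMP response element), the nuclear factor I palindrome, ACAATGG (a SOX site), TATAAA, or the left and right parts of an RE1 site, TTCAGCACC and GGACAGCG, searched on both strands. These occurred in 1.79%, 0.0365%, 3.66%, 13.6%, 0.371% and 1.26% of all entries.

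Syt11, a close relative of Syt4 that has a serine in place of a calcium-binding aspartate of its first C2 domain, was the gene that rose. It spans chr3:88744699-88775159. In input it stood at 184, 177, 172 and 181 FPKM in animals 579, 580, 581 and 595, and in HA IP at 316, 263, 355 and 267 FPKM. Every HA IP library lay above every input library. The means were 179 ± 5.21 and 300.3 ± 43.8 FPKM (SD, n = 4 each), a log2 fold change of 1.58 (SE 0.11; limma, adjusted p = 3.2e-07). On the deposited scale it was 0.74 (SE 0.11, adjusted p = 1.0e-04), smaller but still past the threshold. Between 28650 and 72848 fragments per library lay behind these values. The spread over animals was wider in HA IP (coefficient of variation 14.6%) than in input (2.91%), with animals 579 and 581 high and 580 and 595 low in HA IP. Of all genes tested 15.1% had a log2 fold change at least that of Syt11, and the smallest among the 12 astrocyte markers, 2.96, was higher.

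Syt4, the relative that shares the serine, went the other way. It stood at 65.2, 63.4, 50.1 and 76.3 FPKM in the inputs of animals 579, 580, 581 and 595 and at 2.56, 2.53, 2.09 and 3.40 FPKM in their HA IP libraries. Animal 581 was the lowest and animal 595 the highest in both groups. The log2 fold change was -3.72 (SE 0.16; limma, adjusted p = 1.1e-08). Within animals the log2 ratio of deposited FPKM stayed between -4.67 and -4.49. For each unit of Syt11 FPKM there was 0.356 ± 0.0533 of Syt4 in input and 0.00908 ± 0.00287 in HA IP (SD, n = 4 each).

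Syt2 and Syt1, both fast calcium sensors of release, had the lowest fold changes of the 10. Syt1, the sensor of synchronous release in forebrain neurons, lies at chr10:108497650-109010980. It stood at 118, 117, 123 and 131 FPKM in the inputs of animals 579, 580, 581 and 595 and at 3.87, 3.43, 3.87 and 3.74 FPKM in HA IP. Its spread was small in both groups, with coefficients of variation of 5.36% and 5.48%. The log2 fold change was -4.17 (SE 0.07; limma, adjusted p = 1.6e-10), and 0.615% of all genes tested had one at or below it. The HA IP mean was 3.04% of the input mean, and 1803 to 2517 fragments per HA IP library lay behind it.

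Syt2, at chr1:134646534-134753149, is the fast sensor of many inhibitory and hindbrain neurons. It stood at 10.2, 11.3, 12.5 and 9.71 FPKM in the inputs of animals 579, 580, 581 and 595 and at 0.240, 0.240, 0.303 and 0.210 FPKM in HA IP. The order of the animals at the ends was shared, with 581 highest and 595 lowest in both groups. The log2 fold change was -4.26 (SE 0.13; limma, adjusted p = 1.3e-09), the lowest of the 10, and the HA IP mean was 2.28% of the input mean. It rests on 24 to 46 fragments per HA IP library, and its place as the lowest depended on the settings. On the deposited scale with the 0.1 FPKM added, Syt1 was lowest, at -5.00 against -4.98 for Syt2. Without a pseudocount, Syt2 was the lower in every animal. Its log2 ratios of deposited FPKM were -5.56 to -5.36, against -5.14 to -4.93 for Syt1. With TMM scaling and a pseudocount of 0.01 FPKM, Syt2 was again lowest, at -4.58 against -4.19 for Syt1. With a pseudocount of 1 FPKM Syt2 was -2.78, and Syt1, Syt4, Syt13 and Syt5 were lower, at -3.95, -3.42, -3.21 and -3.10.

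Syt9, at chr7:107370349-107548656, is the third sensor of fast release and was the least abundant of the 10 in input. It stood at 3.05, 2.12, 2.174 and 3.24 FPKM in the inputs of animals 579, 580, 581 and 595 and at 0.282, 0.278, 0.275 and 0.481 FPKM in HA IP. The HA IP library of animal 595 stood apart from the other 3, which lay between 0.275 and 0.282 FPKM. The log2 fold change was -1.95 (SE 0.20; limma, adjusted p = 8.5e-06) with all libraries and -2.09 without that one. With a pseudocount of 1 FPKM, above every HA IP value of the gene, it was -1.04. Between 47 and 62 fragments per HA IP library lay behind it.

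**Figure D2:**
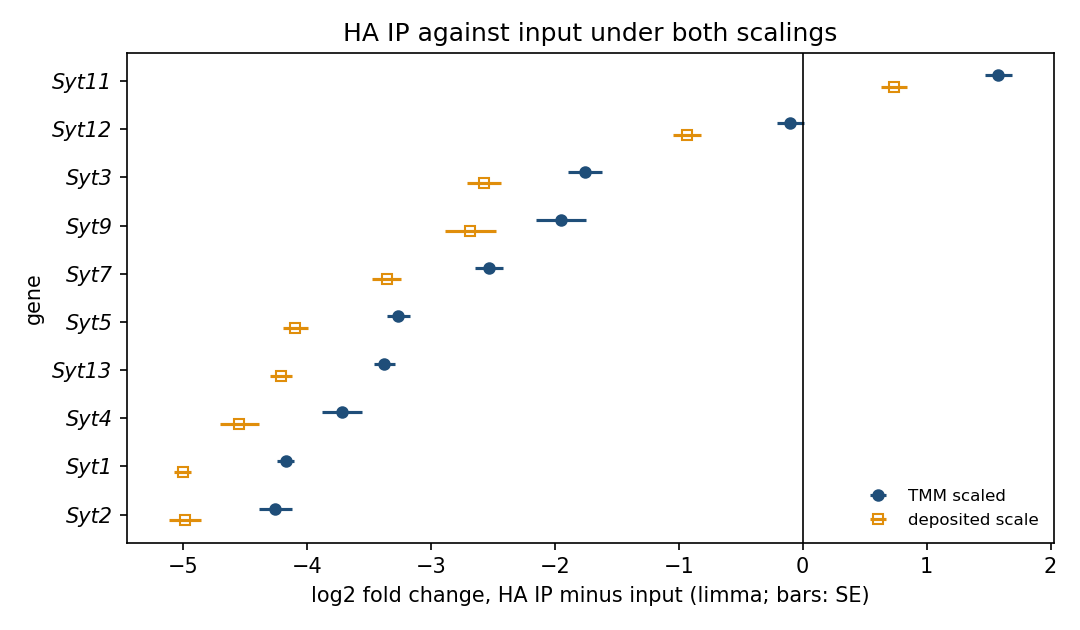
Log2 fold change of HA IP minus input for each gene from limma, with SE as bars; filled circles are TMM-scaled values and open squares values on the deposited scale. Syt12 lies at -0.10 with TMM scaling and at -0.93 without it, while Syt11 is above 0 and the other 8 genes are below 0 under both.

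Syt7 and Syt3 are isoforms with a high affinity for calcium. Syt7, known for asynchronous release, facilitation and lysosome exocytosis, lies at chr19:10388802-10453181. It stood at 25.3, 26.6, 24.6 and 27.4 FPKM in the inputs of animals 579, 580, 581 and 595 and at 2.37, 2.11, 2.24 and 3.16 FPKM in HA IP, where animal 595 was highest. It fell, with a log2 fold change of -2.53 (SE 0.11; limma, adjusted p = 1.5e-08).

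Syt3, which takes part in the removal of AMPA receptors from the postsynaptic membrane, lies at chr7:44382773-44400030. It stood at 10.1, 9.29, 8.47 and 9.32 FPKM in the inputs of animals 579, 580, 581 and 595 and at 1.66, 1.23, 1.26 and 1.85 FPKM in HA IP. Animals 579 and 595 were the high pair in HA IP. In input animal 579 was highest, while 595 and 580 were close, at 9.32 and 9.29 FPKM. The log2 fold change was -1.76 (SE 0.14; limma, adjusted p = 9.1e-07), the smallest fall in size among the 8 genes called lower. Its HA IP mean was 16.1% of the input mean, against 9.52% for Syt7 and 12.4% for Syt9.

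Syt5, whose name has been exchanged with that of Syt9 in parts of the literature, lies at chr7:4539765-4547541. It stood at 85.5, 78.9, 93.0 and 78.3 FPKM in the inputs of animals 579, 580, 581 and 595 and at 4.84, 4.09, 5.61 and 4.78 FPKM in HA IP. The groups were far apart and animal 581 was highest in both. Its log2 fold change was -3.26 (SE 0.09; limma, adjusted p = 8.2e-10).

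Syt12 and Syt13 lack most of the residues through which C2 domains hold calcium. Syt13, at chr2:92915101-92956051, stood at 84.8, 89.7, 100.4 and 90.8 FPKM in the inputs of animals 579, 580, 581 and 595 and at 4.64, 4.45, 5.64 and 4.68 FPKM in HA IP. Its log2 fold change was -3.38 (SE 0.08; limma, adjusted p = 4.6e-10).

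Syt12, at chr19:4445908-4477143, was the gene without a call. It stood at 12.4, 13.8, 17.3 and 14.1 FPKM in the inputs of animals 579, 580, 581 and 595 and at 6.93, 7.22, 7.22 and 8.49 FPKM in HA IP. All HA IP values were below all input values on this scale, and the HA IP mean was 51.8% of the input mean. After TMM scaling the log2 fold change was -0.10 (SE 0.11; limma, adjusted p = 0.400), and on the deposited scale -0.93 (SE 0.11, adjusted p = 2.2e-05). Without animal 581, whose input was the highest, the TMM-scaled value was 0.02. Whether Syt12 is called lower thus depends on the scaling, while its position between Syt11 and the other 8 genes was the same under both.

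**Figure D3:**
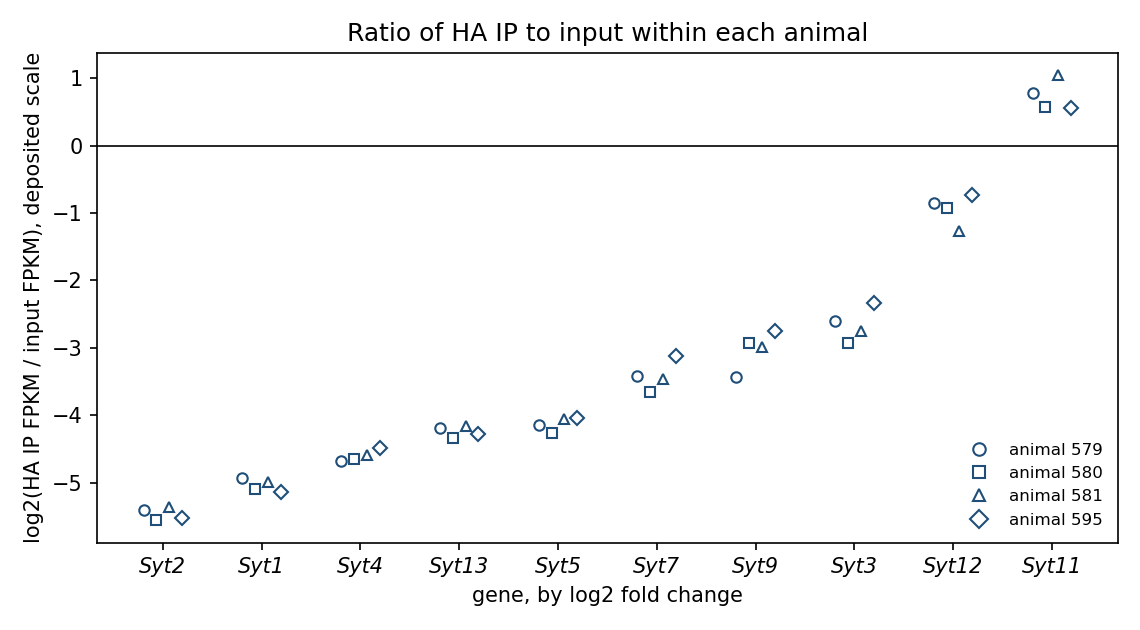
Log2 ratio of HA IP to input FPKM on the deposited scale within each of the 4 animals (symbol shapes), for genes in order of their log2 fold change. Ratios of Syt2, Syt1, Syt4, Syt13 and Syt5 lie between -5.56 and -4.03, those of Syt12 between -1.26 and -0.73, and those of Syt11 between 0.56 and 1.04.

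The order of the levels differed between the groups. In input the order by FPKM was Syt11, Syt1, Syt13, Syt5, Syt4, Syt7, Syt12, Syt2, Syt3 and Syt9. Neighbours whose values overlapped there were Syt13 and Syt5, Syt12 and Syt2, and Syt2 and Syt3. In HA IP the order was Syt11, Syt12, Syt13, Syt5, Syt1, Syt4, Syt7, Syt3, Syt9 and Syt2. Overlapping neighbours there were Syt13 and Syt5, Syt4 and Syt7, and Syt9 and Syt2. Syt12 moved from rank 7 to rank 2, and Syt1 from rank 2 to rank 5. These levels depend on the gene lengths in the FPKM, which were 14257 bases for Syt1 and 19620 for Syt7 against 1742 to 4947 for the other 8, and lengths that large need not be those of the transcripts present. By fragments, not divided by length, Syt1 ranked 1 and Syt11 ranked 2 in input, and Syt11 ranked 1 and Syt1 ranked 2 in HA IP. Syt12 went from rank 7 to rank 4 by fragments, behind Syt7 at rank 3.

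The makeup of the 10 transcripts, which does not depend on how libraries are scaled to each other, went from mixed in input to mostly Syt11 in HA IP. Syt11 took a mean of 29.6% of the summed FPKM of the 10 genes in input (range 28.5% to 30.8%) and 91.3% in HA IP (89.7% to 92.6%). Weighted by fragments its shares were 20.7 ± 0.822% and 88.7 ± 1.80% (SD, n = 4 each). Syt1 took 20.3 ± 0.646% and 1.14 ± 0.105% of the FPKM, and Syt13, Syt5 and Syt4 fell from 15.1%, 13.9% and 10.6% to 1.48%, 1.47% and 0.827%. Weighted by fragments Syt1 took 44.2% and 3.47%, so that it was the largest share of input, and Syt5 took 3.71% and 0.546%. Syt12 took 2.39 ± 0.340% of the FPKM in input and 2.31 ± 0.446% in HA IP, and 1.19% and 1.61% by fragments. The ratio of Syt11 to Syt1 FPKM was 1.38 to 1.56 in the inputs and 71.5 to 91.9 in HA IP. The 9 genes other than Syt11 summed to 425 ± 13.7 FPKM in input and 28.1 ± 2.18 FPKM in HA IP. These shares are given as values, without a test.

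**Figure D4:**
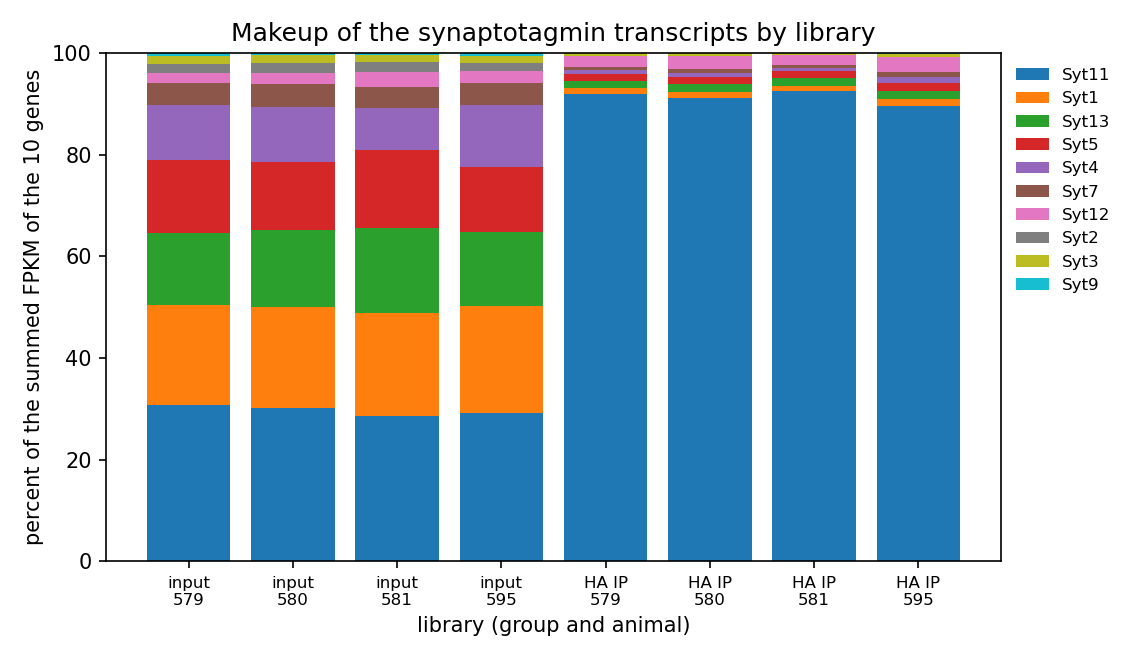
Percent of the summed FPKM of the 10 genes that each gene took, one stacked bar per library with groups and animals on the x axis. Syt11 takes 28.5% to 30.8% of each input bar and 89.7% to 92.6% of each HA IP bar.

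The highest animal was the same in both groups for 6 of the 10 genes and the lowest for 4 of the 10. Over 15604 genes tested these shares were 39.95% and 38.9%, so that the count for the lowest animal lay at the background. With only 10 genes, the count for the highest animal is not read as a trait of the members either. In HA IP the library of animal 595 was the highest for Syt3, Syt4, Syt7, Syt9 and Syt12, and that of animal 581 for Syt1, Syt2, Syt5, Syt11 and Syt13. For Syt1 animals 581 and 579 were nearly tied, both at 3.87 FPKM. The shares of all genes that were highest in each library are not given here, so this split has no background. The HA IP library of animal 595 was also the smallest, with 33834388 fragments, and the part of depth in its high values was not tested.

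Genes with profiles nearest to the ends of the order were looked for among 11404 other tested genes with a mean of at least 5 CPM (fragments scaled to the library total), by the root mean square difference of centred log2 values over the 8 libraries. Nearest to Syt11 were Zfp516 at 0.04, Cnnm3 at 0.05 and Ehd1 at 0.06, with log2 fold changes of 1.56, 1.55 and 1.55. Nearest to Syt2 were the neuronal calcium sensor gene Vsnl1 at 0.15, Syt1 at 0.16 and the synaptic vesicle gene Sv2b at 0.17, with -4.27, -4.17 and -4.29. The difference between groups makes up most of such a profile, so these are genes with a similar fold change.

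Neuronal markers moved with the 8 genes that fell. Each of 15 pan-neuronal markers passed the test as lower, between -4.17 and -0.96 with a median of -2.46. Their summed FPKM was 3120 to 3243 in input and 245 to 273 in HA IP, and none was at 0 there. All 8 excitatory and all 8 inhibitory neuron markers were lower too, with medians of -3.60 and -3.97 and summed FPKM of 40.8 to 53.4 and 17.4 to 25.1 in HA IP, against 993 to 1132 and 588 to 625 in input. Syt1 at -4.17 lay within the range of each of these lists, and Syt2 at -4.26 within that of the inhibitory list alone, which ran from -4.41 to -2.55. Syt3 and Syt9 fell less than every excitatory and inhibitory marker. Input and HA IP came from the same homogenized cortices. For a level within the input, a bulk RNA, fewer cells of a type and less RNA per cell cannot be told apart. The part of neuronal RNA in the HA IP values of the 10 genes was not tested.

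Markers of other cells were lower in most cases. All 8 oligodendrocyte, 8 microglia and 8 endothelial markers fell, with medians of -3.30, -2.90 and -2.04. Of 6 oligodendrocyte precursor markers 5 fell and 1 did not pass, and of 6 mural markers 3 fell, 1 rose and 2 did not pass. Syt11 rose by 1.58 beside these. In deposited FPKM its HA IP mean was 168% of its input mean, against a median of 993% over the 12 astrocyte markers. Which cells gave its input level of 179 FPKM was not tested.

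Of the other 7 synaptotagmin genes, 6 were tested, 5 fell and 1 rose, with a median of -3.27. Over all genes tested, 41.2% were called lower and 42.1% higher. Syt16 fell by 3.69 on the log2 scale, from 33.7 ± 2.80 to 1.40 ± 0.255 FPKM, and Syt17 by 3.16, from 23.9 ± 3.17 to 1.43 ± 0.297 FPKM. Syt14, Syt10 and Syt6, lower in level, changed by -3.66, -3.38 and -2.22. They rest on 8 to 14, 3 to 21 and 29 to 108 fragments per HA IP library, and with a pseudocount of 1 FPKM they were -1.92, -1.64 and -0.74. Syt15 had 1.70 (SE 0.58; limma, adjusted p = 0.0194). It was low in all libraries, with 10 to 47 fragments in input and 35 to 428 in HA IP, and 1.76 FPKM in the HA IP library of animal 581 stood far above the 0.179 to 0.223 FPKM of the other 3. Without that library it was 1.04, and it did not pass on the deposited scale (1.18, adjusted p = 0.0779, but 0.00946 with the animals as a block), with a pseudocount of 1 FPKM (0.57, adjusted p = 0.0868) or without the input of animal 580 (1.55, adjusted p = 0.0510). Syt8, with at most 3 fragments in a library, was not tested.

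Other genes of tandem C2 proteins fell in 12 of 13 cases, with a median of -1.80, where 41.2% of all genes tested were called lower. Mctp1, which encodes a membrane protein with C2 domains, had the lowest fitted value, -3.90, going from 9.41 to 0.285 FPKM. Rph3a, a Rab3 effector of synaptic vesicles, fell by 3.20. Sytl5 went from 0.560 to 0.000991 FPKM and Mctp2 from 0.414 to 0.00865 FPKM, larger falls in proportion than that of Mctp1. With the 0.1 FPKM added, their fitted values were only -2.35 and -1.80. Esyt2, an extended synaptotagmin that tethers endoplasmic reticulum to the plasma membrane, fell by 0.33. Sytl4 rose by 0.78 from 0.0441 ± 0.0142 to 0.0980 ± 0.0369 FPKM, a level near the floor of the test.

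SNARE and Munc18 genes encode the fusion machinery on which synaptotagmins act. Of 17 SNARE and Munc18 genes tested, 8 rose and 9 fell, with a median of -0.48, against 4 higher and 10 lower without TMM scaling. These counts are near the shares over all genes tested, 42.1% higher and 41.2% lower with TMM scaling and 23.3% and 61.6% without it. The neuronal SNARE genes Snap25 and Stx1a changed by -4.17 and -3.34. At the other end Stxbp3a, which encodes Munc18c, rose by 3.53, from 6.24 ± 0.677 to 41.1 ± 4.50 FPKM. The vesicle SNARE genes Vamp8 and Vamp3, of endosomal and constitutive traffic, rose by 2.52 and 1.81, and the plasma membrane syntaxin gene Stx4a by 1.09. These 4 genes also rose on the deposited scale, by 2.70, 1.69, 0.97 and 0.25. Vamp7 was listed at 0 in all libraries.

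Of 17 priming and fusion regulators tested, 15 fell, Unc13c rose and Unc13d did not pass (median -2.74). The shares over all genes tested were 41.2% lower and 42.1% higher. Rims4, of the active zone family that docks vesicles, had the lowest value, -4.59, and the complexin gene Cplx1 fell by 3.92, whereas Cplx2 fell by 0.76. Unc13c had 0.78, but -0.05 on the deposited scale. Of 15 vesicle and endocytic partners 11 fell, 3 rose and Ap2m1 did not pass (median -2.22), beside the same shares over all genes. Sv2b, a vesicle protein gene of the family that binds synaptotagmin, had the lowest value, -4.29, and Ston2, an endocytic adaptor that binds synaptotagmin, rose by 2.80, from 2.44 ± 0.331 to 9.89 ± 0.979 FPKM. The AP2 adaptor genes stood between -0.53 and 0.47, and Ap2a1 and Ap2s1, called higher with TMM scaling, were lower on the deposited scale (-0.62 and -0.37).

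**Figure D5:**
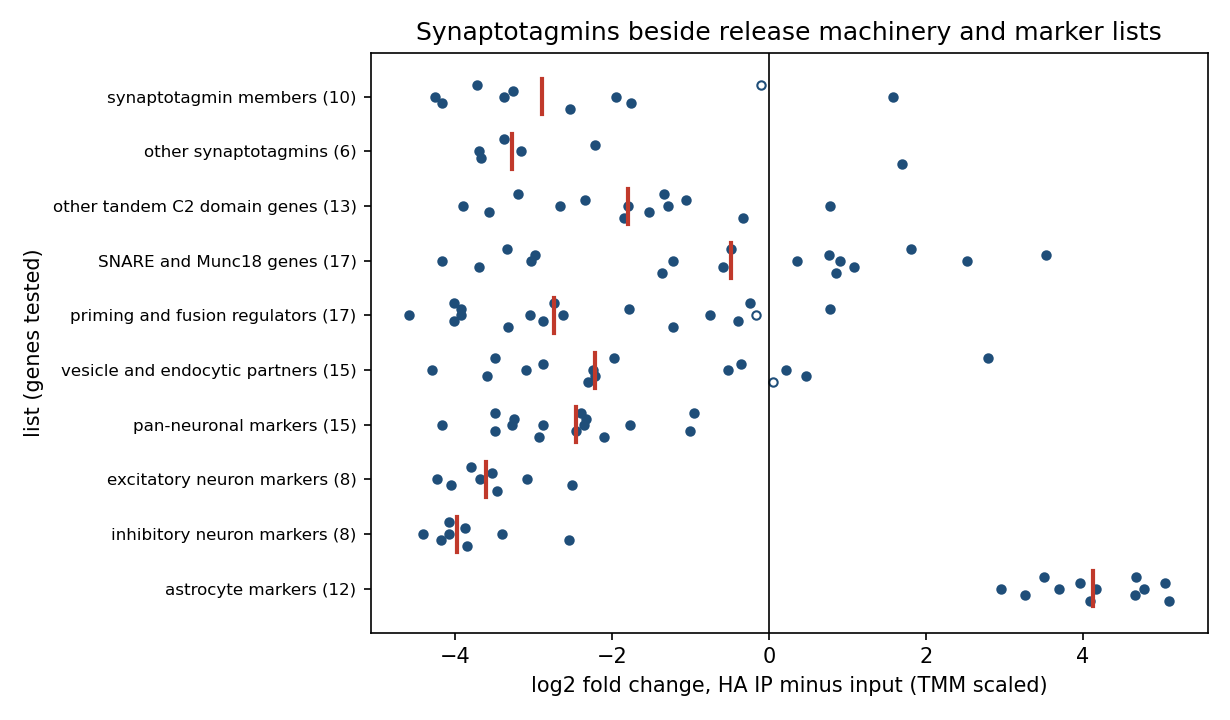
Log2 fold change (TMM scaled) of every tested gene of each list, with filled circles past the adjusted p threshold of 0.05, open circles not past it, and red bars as list medians. The 10 synaptotagmins have a median of -2.90 and the SNARE and Munc18 genes, the most widely spread of the lists drawn, run from -4.17 to 3.53.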

How the data were processed

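Every library has its own file of 24060 gene symbols. The authors' files name no unit. The deposited values were taken to be FPKM, fragments the authors had scaled to gene length and library total, since a single integer length for each gene and a single integer total for each library turned the 142235 nonzero values into fragments within 0.001 of an integer. In a simulated table of 17469 genes with at least 15 fragments, 99.6% were recovered exactly. Bcl2fastq, STAR, HTSeq and build mm10 are listed in the submitters' processing notes. The annotation and strand setting are not given in these sources. Labels' protocols give stranded paired-end libraries from mRNA-enriched RNA.

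Genes with at least 0.246 CPM (10 fragments in a library of median size) in 4 libraries and 15 fragments in all were tested. Limma 3.58.1 in R 4.3.3, also tested on simulated data, compared HA IP with input on log2(FPKM/TMM factor + 0.1) with an intensity trend; two-sided p-values were adjusted by Benjamini-Hochberg across the 15605 genes. TMM factors (0.3 of M and 0.05 of A values trimmed, unweighted) were computed with code written for this purpose. Alternatives were other scalings, pseudocounts, filters, no trend, an animal block and leaving out libraries.

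The numbers in the sample titles pair the libraries by animal: deviations from group means correlated at 0.219 to 0.398 within animals and at most at 0.114 between them. The members and the 14 lists of 151 entries were chosen with earlier results of these data known. Named genes were the 10 members, Aldh1l1, Rpl22, the 3 genes nearest to the members with the largest and smallest fold change, and the ends of each pathway list; others were named after their values were seen. Rpl22, which carries the tag, had 0.69 with TMM scaling and -0.14 on the deposited scale, where it did not pass (adjusted p = 0.311). Promoters and coordinates are from RefSeq, GRCm38.p6; 1 list entry matched by an older symbol.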

Additional observations from a re-analysis of the deposited data

Results flagged for a closer look

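In groups of 4 libraries, a library was singled out where its gap to the nearest of the others took a larger part of the group's range than Dixon's critical value, which chance passes in about 1 of 20 groups. Of 34 groups checked (17 synaptotagmin genes in input and HA IP), 5 passed it. Syt9 in HA IP was highest in animal 595, at 0.481 FPKM. Syt14 in input was highest in animal 595, at 5.27 FPKM. Syt15 in HA IP was highest in animal 581, at 1.76 FPKM. Syt8 was above 0 only in animal 579, at 0.0150 FPKM in input and 0.00389 FPKM in HA IP, which are 3 fragments and 1 fragment. With its other libraries at 0, the gap is the whole range, so both Syt8 groups had to pass. The rate of 1 in 20 does not apply to them.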

How the results depend on the processing

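All 9 called members kept direction and call under all 21 alternatives run for each. For Syt12, 18 of 21 gave no call in the same direction; it passed on the deposited scale (-0.93, also with the replicate block) and turned to 0.022 without animal 581, and over the settings that left out libraries it ranged from -0.17 to 0.022. With the replicate block alone, 6717 genes were higher and 6596 lower, against 6565 and 6427 without it, and no call among the members or other synaptotagmins changed. Without TMM factors there were 3643 higher and 9613 lower genes, so that higher calls made up 27.5% in place of 50.5%; with the replicate block added, a setting chosen after seeing the data, 3791 and 9794. Of the 68 tested pathway genes, 14 rose and 52 fell, where 42.1% and 41.2% of all genes tested did. On the deposited scale 6 rose, where 23.3% of all genes did, and with the block added 7. Unc13c reversed to -0.050 in both. On the deposited scale Snap23 also reversed, from 0.36, called higher, to -0.45, called lower. Vamp4 went from 0.77 to -0.07, without a call on the deposited scale. Ap2a1, Ap2s1 and Ap2m1 turned from above 0 to -0.62, -0.37 and -0.79. By fragments, Syt11 took 20.7% in input and 88.7% in HA IP. Depth limits Syt10, Syt14, Syt2, Syt6, Syt15 and Syt9, with as few as 3, 8, 24, 29, 35 and 47 fragments in an HA IP library.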
